A study of Mus musculus with 3 samples.

Results

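Rab GTPases are small membrane-bound switches that give each organelle of the secretory and endocytic pathways its identity. Exchange factors load a Rab with GTP on its membrane, the loaded form recruits effectors that move, tether and fuse vesicles, and GTPase-activating proteins turn it off. In dendritic cells, which take up microbes and show their fragments to T cells, Rab proteins are known for guiding phagosome maturation, receptor recycling, cytokine release and the delivery of antigen to MHC molecules. The Rab genes described here are the protein-coding genes of the deposited table whose symbol is Rab, digits and at most 1 letter or a letter and digit. The rule found 59 genes among 55487, and all 59 have the same coordinates in GENCODE M21 (GRCm38).

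RNA was sequenced from bone marrow derived dendritic cells of wild-type mice, which are grown in culture from marrow precursors. One library each came from untreated cells, from cells treated with P. vulgatus (Phocaeicola vulgatus, an anaerobe of the intestine) and from cells treated with YB328, a gut bacterial strain. With 1 library per group no difference has a replicate check and no test across libraries could be made. The sources used here do not give the type of marrow culture, the dose or the exposure time.

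The deposited counts summed to 15538133 untreated, 26660870 with P. vulgatus and 26924006 with YB328. Of the untreated counts 57.9% came from nuclear protein-coding genes (Lars2 left out), against 95.3% and 96.6% with the bacteria, and this difference stands beside every comparison with untreated cells. Of 10 dendritic cell markers all 10 were expressed, and their summed level was 9862 CPM untreated, and with P. vulgatus 17095 CPM and with YB328 16946 CPM. Of these markers 2 rose and 2 fell with P. vulgatus, and 2 rose and 1 fell with YB328. Itgax, the CD11c gene, fell from 273 CPM to 22.5 and 75.4 CPM, while Irf8 rose from 273 CPM to 1386.5 and 1604 CPM. Itgam fell from 211 CPM to 95.8 CPM with P. vulgatus and stood at 203 CPM with YB328. Cd74 alone held 4746, 6564 and 6811 CPM of the sums and did not pass. Of 8 expressed neutrophil markers 1 rose with each bacterium, 7 fell with P. vulgatus and 6 with YB328, and the list of 12 summed to 4632, 1579 and 1297 CPM. Lcn2, the 1 that rose, held 86.6, 1188 and 753 CPM of these sums. The sums of 9 macrophage markers were 268, 711 and 1346 CPM, of 10 mast cell and basophil markers 111, 299.6 and 345 CPM, of 10 erythroid and megakaryocyte markers 181, 125 and 105 CPM, and of 7 stroma markers 561, 31.1 and 45.7 CPM. Of 6 expressed stroma markers 4 fell and 1, Lum, rose with each bacterium. Col1a2 and Col1a1 held 282 and 205 CPM of the untreated stroma sum. Of 11 expressed cell cycle genes 9 fell with each bacterium, and the list of 12 summed to 368, 108 and 109 CPM. Among the mast cell and basophil markers Hdc alone held 14.6, 153 and 226 CPM of the sums. Cma1 and Tpsb2 had 0 counts untreated and Ms4a2 had 0 with P. vulgatus. The part of these lists in the results was not tested. In such bulk samples fewer cells of a type and less RNA per cell cannot be told apart.

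Libraries are compared in CPM (counts per 1000000, with library sizes adjusted by the trimmed mean of M values, TMM), and genes are compared in TPM, which is per length. "Rose" and "fell" are used only where a gene reached 5 CPM in at least 1 library, its ratio was at least 2 after adding 0.5 CPM (1 on the log2 scale), and the exact 95% interval of the count ratio excluded 1. Folds are plain ratios of CPM. Intervals cover counting error only, and reads copied by PCR and carrying no molecular identifier cannot be counted as separate molecules.

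In each library 54 of the 59 Rab genes had at least 1 count, though not the same 54, and 42 reached 5 CPM in at least 1 library. Rab3c, Rab9b and Rab25 had 0 counts throughout, which allows up to 0.194 CPM untreated, 0.113 CPM after P. vulgatus and 0.110 CPM after YB328. The other 14 below 5 CPM include genes best known from epithelia or neurons, such as Rab17, Rab3b and Rab39b. By mean TPM the most abundant were Rab11a, Rab14, Rab7, Rab10, Rab8b, Rab1a, Rab2a, Rab11b, Rab1b and Rab4b. The first 5 of these made up 46.4% of all Rab TPM in untreated cells, 43.6% with P. vulgatus and 44.5% with YB328.

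Rab11a, the GTPase of the slow recycling endosome, stood at 164.6 TPM untreated, 281 TPM with P. vulgatus and 315 TPM with YB328. Rab14, which links the Golgi with endosomes, stood at 229, 241 and 261 TPM in the same order. Rab7, the late endosome and lysosome GTPase, stood at 109, 221 and 275 TPM. These recycling and late endosome genes were the 3 highest by TPM in each library. Summed over the family, Rab genes took 0.421%, 0.426% and 0.419% of the counts of nuclear protein-coding genes, in the order untreated, P. vulgatus and YB328. On the TMM scale, which is set over all RNA, the same sums were 2452, 4083 and 3995 CPM.

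**Figure D1:**
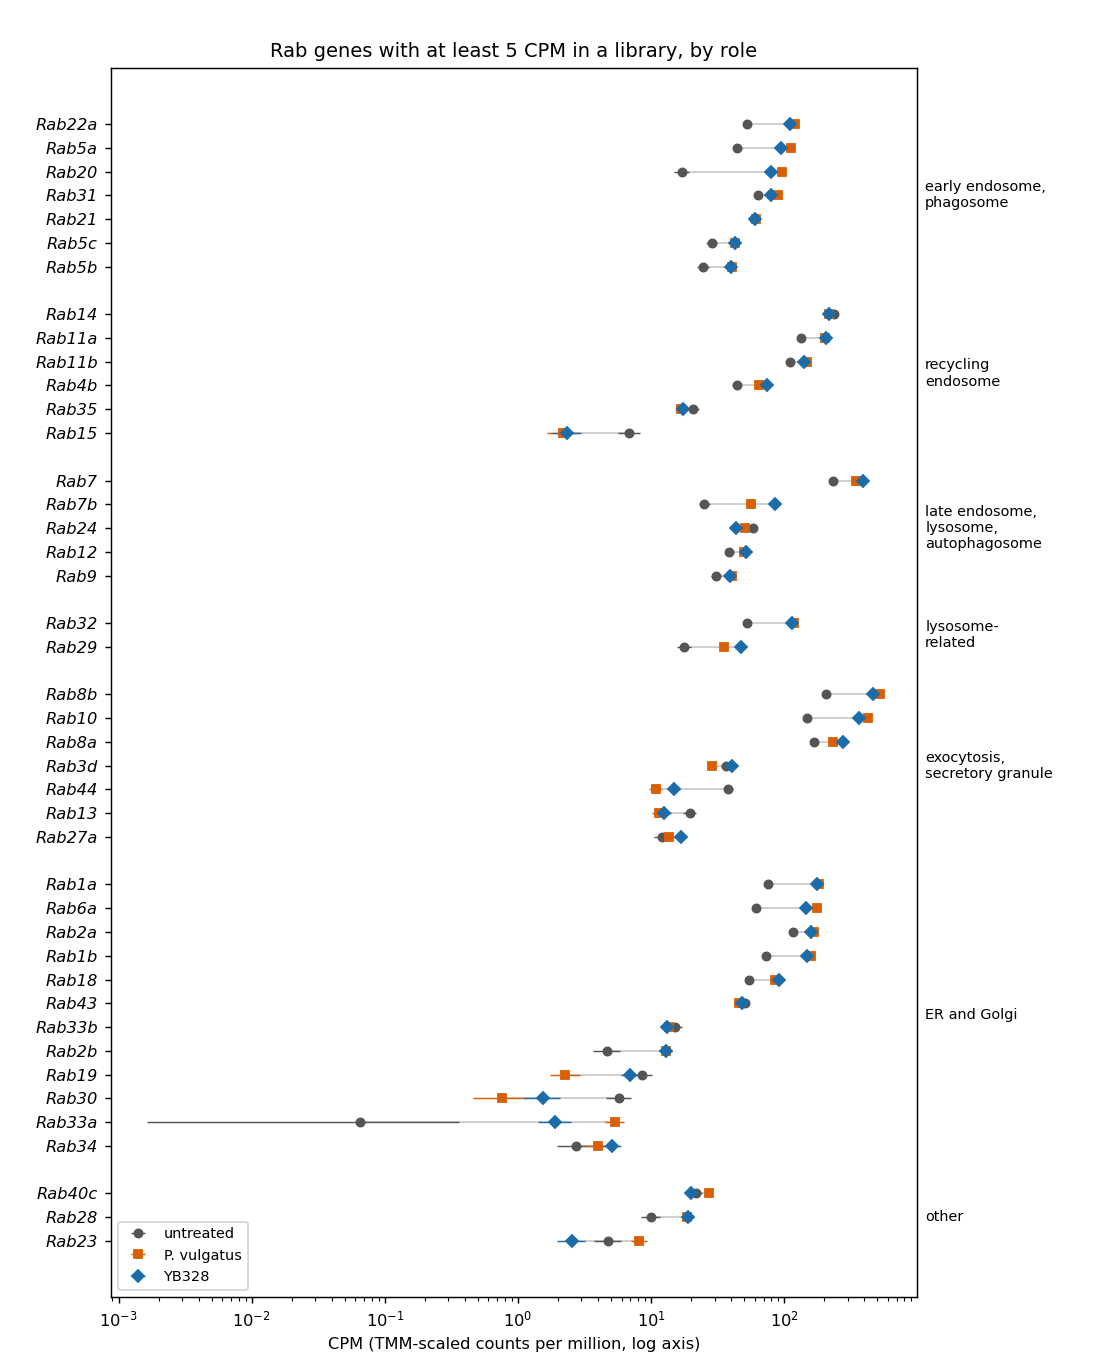
Level of each of the 42 Rab genes that reached 5 CPM, grouped by role (TMM-scaled CPM on a log axis). Points are the untreated (grey circle), P. vulgatus (orange square) and YB328 (blue diamond) libraries, 1 each, with exact 95% Poisson intervals as bars. The points of both bacteria lie close together for most genes, while Rab20 moves from 17.0 CPM untreated to 96.0 and 79.4 CPM.

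With P. vulgatus 12 of 42 Rab genes rose and 4 fell, and with YB328 13 rose and 3 fell. The background of all 10699 genes tested was 25% higher and 18.9% lower with P. vulgatus, and 24.6% higher and 18.4% lower with YB328. The shares of Rab genes that rose, 28.6% and 31.0%, lay near that background, and the shares that fell were 9.52% and 7.14%. The median log2 ratio of the 42 genes was 0.53 with P. vulgatus and 0.59 with YB328, beside 0.14 and 0.17 over all genes. Both comparisons share the untreated library, so their agreement is not independent.

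The call of higher or lower depends on the unit. With the deposited TPM in place of CPM, and a minimum of 5 TPM, 39 Rab genes and 9408 genes in all were tested. Of the 39, 17 were higher and 2 lower with P. vulgatus, beside 33% and 14% of all genes. With YB328 the counts were 20 and 1, beside 36% and 12.2% of all genes. TPM also moved the median of all genes, by 0.35 and 0.45, and the share of higher genes among all calls from 56.9% to 70.2% and from 57.1% to 74.7%. Scaling by nuclear protein-coding genes other than Lars2 lowered the median of all genes by 0.15 in each comparison, and of 41 Rab genes tested 11 and 9 then were higher, beside 21.8% and 21.4% of all genes, so that these counts lay near the background.

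**Figure D2:**
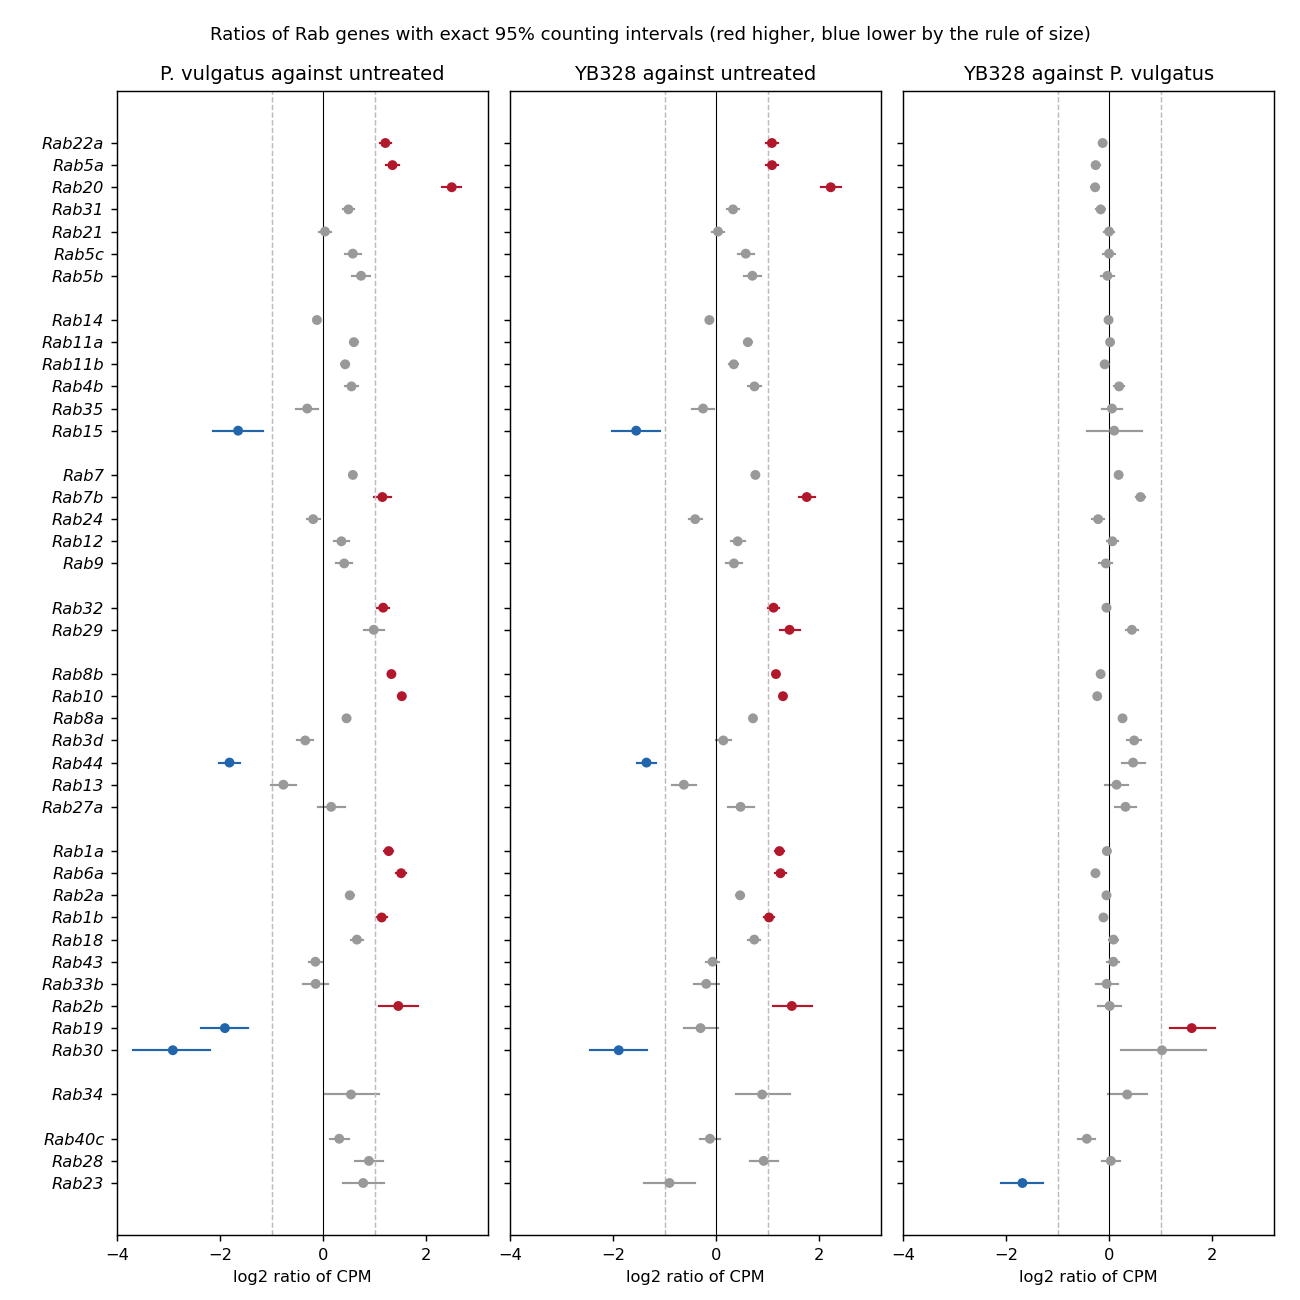
Log2 ratio of CPM (no value added) with exact 95% counting intervals for 41 Rab genes, in the order of the plot of levels. Panels set P. vulgatus against untreated, YB328 against untreated and YB328 against P. vulgatus, red and blue points rose and fell, and dashed lines mark a ratio of 2. Rab33a, with 1 count in the untreated library, is left out, and Rab20 is the farthest to the right with both bacteria.

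Among the 7 genes of the early endosome and phagosome, 3 rose and 0 fell with each bacterium. Over all genes the shares were 25% and 18.9% with P. vulgatus and 24.6% and 18.4% with YB328. The group is too small to set apart from them. Rab20 (ENSMUSG00000031504.6, chromosome 8, 11453518 to 11478710), a GTPase of maturing phagosomes that is also known to be induced by low oxygen, stood at 17.0 CPM untreated, 96.0 CPM after P. vulgatus and 79.4 CPM after YB328. The rise with P. vulgatus was 5.65-fold (95% interval 4.97 to 6.44). With YB328 it was 4.68-fold (95% interval 4.11 to 5.34). Of the Rab genes that rose, leaving out Rab33a with its 1 untreated count, Rab20 had the largest ratio with each bacterium. Its exons share 25.6% of their bases with a noncoding gene on the other strand, E230013L22Rik, which stayed under 2 CPM, and the kit does not mark strand.

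Rab5a (ENSMUSG00000017831.8, chromosome 17, 53479234 to 53507680), which drives fusion of early endosomes, stood at 44.3, 113 and 94.1 CPM in that same order and rose 2.55-fold and 2.12-fold. Rab22a, which acts between early endosomes and the recycling route and is known for antigen cross-presentation in mouse dendritic cells, stood at 52.4, 121 and 111 CPM and rose 2.31-fold and 2.12-fold. The close relatives of both genes changed less and did not pass. Rab5b stood at 24.4, 40.8 and 39.8 CPM, Rab5c at 28.4, 42.5 and 42.4 CPM, and Rab31 at 63.7, 89.7 and 80.0 CPM. Rab21, known for integrin traffic, was level at 59.3, 60.9 and 60.8 CPM. The YB328 calls of Rab5a and Rab22a were lost with nuclear protein-coding scaling, at log2 ratios of 0.94 and 0.94.

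The upstream sequences of Rab20 and Rab5a each hold the E-box CACGTG, the core of the element bound by regulators of lysosomal genes, which contains the hypoxia response core ACGTG. They are shown because both genes rose, with the E-box in capitals, from RefSeq (build GRCm38.p6). The Rab20 stretch (chr8:11478669-11478698, minus strand) has its match 46 bases before the RefSeq start and 12 bases or more inside the gene as the table places it. The Rab5a stretch (chr17:53479127-53479156, plus strand) has its match 95 bases before the start.
Rab20: cggccgggcaccCACGTGgtcgcagggctg
Rab5a: acccggggatgtCACGTGacttcggccccg

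Another CACGTG lies 235 bases before the Rab5a start. Of the 59 Rab genes 48 have an entry in the promoter table, and CACGTG was present on either strand within 250 bases upstream in 5 of the 48 (10.4%), beside 6.86% of 27025 genes. All 5 were tested genes, and of them only Rab20 and Rab5a rose. ACGTG, which every CACGTG also holds, was present in 20.8% beside 18.5%. The core of the interferon-stimulated response element (TTTC, any 2 bases, TTTC) was found in 1 of the 48, Rab19 (2.08% beside 3.46%), and a loose kappa B core (GGG, any 5 bases, CC) in 72.9% beside 48.65%. Of the 12 genes with an entry that rose with either bacterium, 7 held the kappa B core (58.3%), beside 73.0% of the tested Rab genes. These are matches of letters, not sites.

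Of 6 tested recycling endosome genes 0 rose with either bacterium and 1 fell, a group too small to set apart from the shares over all genes (25% and 18.9% with P. vulgatus, 24.6% and 18.4% with YB328). The abundant Rab14 stood at 237, 219 and 217 CPM, Rab11a at 134, 203 and 205 CPM, and Rab11b at 110.2, 149 and 139.8 CPM, again untreated, P. vulgatus and YB328. Rab35, which returns receptors rapidly to the surface, stood at 20.6, 16.7 and 17.3 CPM. None of these 4 passed. Rab4b, a GTPase of fast recycling, stood at 43.9, 64.5 and 73.6 CPM and passed only with TPM and YB328, while its relative Rab4a had 5, 3 and 6 counts, so that Rab4b held over 99% of the Rab4 TPM. The gene that fell was Rab15, an early and recycling endosome GTPase, from 6.87 CPM to 2.19 and 2.34 CPM. With the deposited TPM its log2 ratios were -1.02 and -0.91. It lay below the minimum of 5 TPM in every library, so that no call was made.

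In the late endosome group of 5 tested genes Rab7b alone passed, too few genes to set apart from the shares over all genes. Those were 25% higher and 18.9% lower with P. vulgatus, and 24.6% and 18.4% with YB328. Rab7b (ENSMUSG00000052688.12, chromosome 1, 131688695 to 131715439), which acts between late endosomes and the Golgi and is reported in mouse macrophages to dampen Toll-like receptor signalling, stood at 25.1 CPM untreated, 55.9 CPM after P. vulgatus and 85.1 CPM after YB328. It rose 2.22-fold with P. vulgatus (95% interval 1.99 to 2.49). With YB328 it rose 3.39-fold (95% interval 3.04 to 3.78). The YB328 library was the highest of the 3, with a ratio to P. vulgatus of 1.52 (95% interval 1.43 to 1.63), short of the ratio of 2. Rab7 stood at 231, 345 and 392 CPM in the same order, at ratios of 1.49 and 1.70 to untreated, and passed with both bacteria in TPM.

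Rab7 and Rab7b share 60.1% of their coding bases (over the longer sequence), and their longest shared run is 18 bases. The 60 coding bases around the codons of the conserved GTP-binding WDxxGQE motif are shown for this pair, bases 172 to 231 of each GENCODE M21 coding sequence. Capitals mark the 19 bases that differ.
Rab7: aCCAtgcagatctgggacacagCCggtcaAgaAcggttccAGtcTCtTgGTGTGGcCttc
Rab7b: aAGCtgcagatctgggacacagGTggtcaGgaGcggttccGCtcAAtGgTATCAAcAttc

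Of the remaining late endosome genes, Rab9, which returns receptors from late endosomes to the Golgi, stood at 30.7, 40.8 and 39.0 CPM, and Rab12 at 38.8, 49.6 and 51.8 CPM. Rab24, linked to autophagy, stood at 57.8, 50.6 and 43.6 CPM. Its exons share 62.4% of their bases with Prelid1 on the other strand (269, 539 and 395 CPM), so its counts are uncertain without strand.

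Rab32 and Rab29, both GTPases of lysosome-related organelles, were higher with the bacteria. As the 2 tested genes of their group they are too few to set apart from all genes (25% higher with P. vulgatus, 24.6% with YB328). Rab32, which in mouse macrophages helps to kill bacteria in vacuoles, stood at 52.7 CPM untreated, 118 CPM after P. vulgatus and 114 CPM after YB328 and rose 2.25-fold and 2.17-fold. Rab29, known for recruiting the kinase LRRK2 to membranes, stood at 17.7, 35.0 and 47.5 CPM. It rose 2.69-fold with YB328 (95% interval 2.36 to 3.07), while the P. vulgatus ratio of 1.98 lay just under the limit and passed in TPM, and the ratio of YB328 to P. vulgatus was 1.36 (95% interval 1.25 to 1.48). The call of Rab32 with YB328 was lost with nuclear protein-coding scaling (log2 ratio 0.97).

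Rab38, the nearest relative of Rab32 with a shared role in pigment granules, lay the other way. It had 72 counts untreated, 24 with P. vulgatus and 19 with YB328, or 4.67, 0.907 and 0.696 CPM, just below the minimum of 5 CPM, so that no call was made. Rab32 therefore held 89.0%, 99.0% and 99.2% of the summed TPM of the pair. Their coding sequences are 65.9% identical, and the stretch around the same motif (bases 220 to 279 of Rab32 and 178 to 237 of Rab38) differs at 14 of 60 bases, in capitals.
Rab32: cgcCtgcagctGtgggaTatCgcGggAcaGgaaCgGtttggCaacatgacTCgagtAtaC
Rab38: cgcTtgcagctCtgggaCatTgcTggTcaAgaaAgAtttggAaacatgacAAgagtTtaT

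Of 7 tested genes of exocytosis and secretory granules 2 rose and 1 fell with each bacterium. Beside 25% and 18.9% of all genes with P. vulgatus and 24.6% and 18.4% with YB328, this group is too small to set apart. Rab10 (ENSMUSG00000020671.9, chromosome 12, 3247428 to 3309969), which carries vesicles to the plasma membrane and in mouse macrophages brings TLR4 to the surface, stood at 148 CPM untreated, 428 CPM after P. vulgatus and 365 CPM after YB328. With P. vulgatus it rose 2.89-fold (95% interval 2.76 to 3.02). With YB328 it rose 2.46-fold (95% interval 2.35 to 2.57). Rab8b, a GTPase of transport from the Golgi to the surface, stood at 207, 519.6 and 463 CPM and rose 2.51-fold and 2.24-fold. By counts it was the most abundant Rab gene with each bacterium. Its relative Rab8a stood at 169, 232 and 277 CPM, at ratios of 1.37 and 1.64, and did not pass.

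Rab8a and Rab8b are 77.7% identical over their coding bases, with a longest shared run of 17 bases. The stretch around the motif, bases 172 to 231 of both, differs at 8 of 60 bases, in capitals.
Rab8a: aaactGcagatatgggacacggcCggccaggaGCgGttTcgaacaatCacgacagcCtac
Rab8b: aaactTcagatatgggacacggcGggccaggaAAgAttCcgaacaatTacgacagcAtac

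The gene that fell in this group was Rab44 (ENSMUSG00000064147.7, chromosome 17, 29114145 to 29148980), a large Rab reported in mouse mast cell granule release. It stood at 38.0 CPM untreated, 10.8 CPM after P. vulgatus and 14.9 CPM after YB328, with untreated levels 3.52 times (95% interval 3.05 to 4.07) and 2.55 times (95% interval 2.25 to 2.90) as high. By CPM, Rab27b, Rab37 and Rab13 also had their highest level untreated, the first pair below 5 CPM. In TPM Rab27b was highest with P. vulgatus (0.407, 0.559 and 0.268 TPM in the same order). Rab27b stood at 3.50, 1.25 and 0.513 CPM, and Rab37 at 4.21, 0.869 and 1.72 CPM. Rab13 stood at 19.4, 11.4 and 12.6 CPM and did not pass. The sums of neutrophil and stroma markers given above were likewise highest in the untreated library, though Lcn2 and Lum of these lists rose. The sum of mast cell and basophil markers was lowest there (111 CPM, against 299.6 and 345 CPM), with Hdc at 14.6, 153 and 226 CPM of it. Fcer1a, Gata2 and Ms4a2 of that list were instead highest untreated. The part of these cells in the values was not tested.

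Rab27a, which docks secretory granules and in mouse dendritic cells supports cross-presentation, stood at 12.1, 13.5 and 16.8 CPM and did not pass. Rab3d, a granule GTPase, stood at 36.6, 28.8 and 40.4 CPM. Rab26 had 10 counts untreated against 115 and 111, or 0.648, 4.34 and 4.06 CPM, again below the minimum.

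The ER and Golgi group was the largest, with 12 tested genes. Of these 5 rose and 2 fell with P. vulgatus, and 5 rose and 1 fell with YB328. Among all genes 25% rose and 18.9% fell with P. vulgatus, and 24.6% and 18.4% with YB328. The group is too small to set apart from these shares. Rab1a, which takes cargo from the ER to the Golgi, stood at 75.6 CPM untreated, 183 CPM after P. vulgatus and 177 CPM after YB328 and rose 2.42-fold and 2.35-fold. Its relative Rab1b stood at 72.6, 159.9 and 148 CPM and rose 2.20-fold and 2.04-fold. Rab6a, the Golgi GTPase of retrograde and secretory carriers, stood at 61.6, 176 and 146 CPM and rose 2.86-fold and 2.38-fold, and 19.0% of its exon bases lie opposite Mrpl48 (26.6, 22.5 and 23.2 CPM). These 3 genes were at similar levels with both bacteria and lower in the untreated library. The calls of Rab1b were lost with nuclear protein-coding scaling, at log2 ratios of 0.997 and 0.88, and its YB328 call also with median-of-ratios scaling (0.993).

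Rab2b rose from 4.67 CPM to 12.8 and 12.9 CPM, while Rab2a, the abundant relative, stood at 116, 166 and 160.0 CPM and passed with both bacteria only in TPM. Of the Rab2b exon bases 59.3% lie opposite Gm43766, which stayed under 1 CPM, and 4.68% opposite Tox4 (38.6, 98.4 and 90.3 CPM). Rab33a (ENSMUSG00000031104.2, chromosome X, 48519285 to 48530232), a Golgi and vesicle GTPase related to the autophagy factor Rab33b, had 1 count untreated, 141 with P. vulgatus and 52 with YB328. The ratios were 82.2 (95% interval 14.5 to 3269) and 29.4 (95% interval 5.05 to 1183), and both calls rest on a level of at most 5.33 CPM. With 2 CPM added in place of 0.5 the YB328 call was lost (log2 ratio 0.92). Rab43, which supports cross-presentation in mouse CD8-positive dendritic cells, was level at 50.7, 45.8 and 48.4 CPM, and 75.4% of its exon bases are shared with Gm45140 (5.31, 4.80 and 7.91 CPM). Rab18, a GTPase of the ER and lipid droplets, stood at 54.4, 85.9 and 91.0 CPM, Rab33b at 15.1, 13.7 and 13.2 CPM, and Rab34 at 2.72, 3.97 and 5.05 CPM.

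Rab30, a Golgi GTPase, fell from 5.70 CPM untreated to 0.756 CPM after P. vulgatus and 1.54 CPM after YB328. Its untreated level was 7.55 times (95% interval 4.61 to 13.0) and 3.71 times (95% interval 2.54 to 5.49) as high by counts. The deposited TPM gave another picture, with 1.58 TPM untreated, 0.646 TPM with P. vulgatus and 1.61 TPM with YB328, so that the direction with YB328 turned. Rab19, placed in the same group, fell from 8.49 CPM to 2.27 CPM with P. vulgatus and stood at 6.88 CPM with YB328.

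Rab30 and Rab44 stood out in how much TPM each count was worth, which depends on the transcript length that the authors' pipeline assigned. Over 10021 genes with at least 20 counts in every library, TPM per CPM rose by a median of 0.34 (log2) from untreated to P. vulgatus and 0.43 to YB328. Relative to these medians Rab30 shifted by 1.29 and 1.49, a size reached by 2.61% and 1.60% of genes. Rab44 shifted the other way, by -1.09 and -1.41, a size reached by 3.89% and 1.91% of genes. Rab44 thus had 26.0, 4.37 and 5.16 TPM and fell in either unit. The other 39 Rab genes of this set shifted by less than 0.5 in size, and transcripts were not analysed here.

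**Figure D3:**
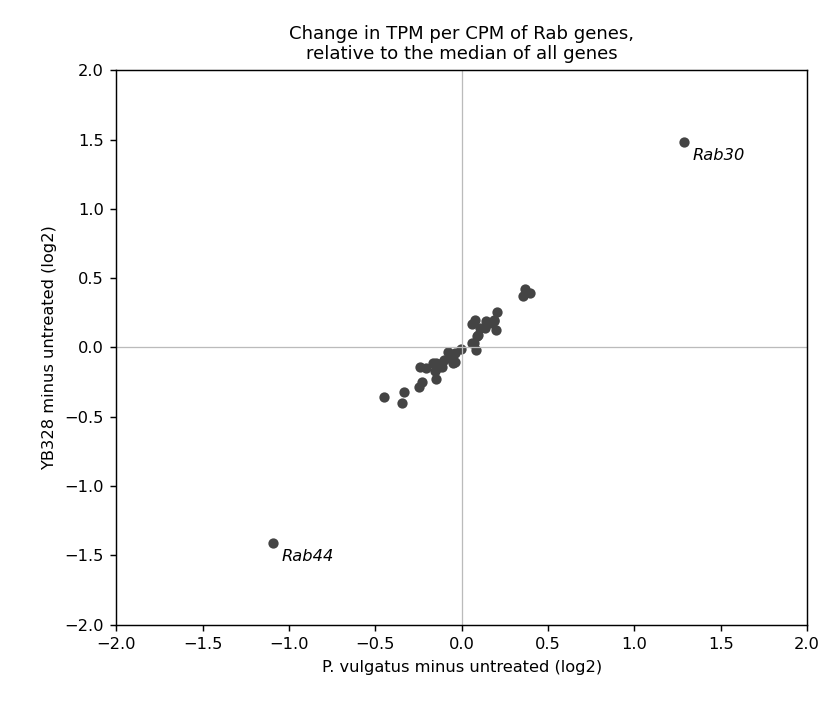
Change in log2 TPM per CPM from untreated to P. vulgatus (x axis) and to YB328 (y axis), relative to the median over all genes, for 41 Rab genes with at least 20 counts in every library. Each point is a gene, both axes share the untreated library, and Rab30 and Rab44 lie far from the other genes, at 1.29 and -1.09 on the x axis.

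The remaining tested genes are Rab28, known from cilia and photoreceptors, at 9.98, 18.5 and 18.9 CPM, and Rab40c, part of a ubiquitin ligase, at 21.8, 27.2 and 20.1 CPM. Neither passed in any comparison. The ratios of Rab28, 1.85 and 1.90, lay near the limit, and it passed with both bacteria in TPM.

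Between the bacteria few Rab genes differed: with YB328 against P. vulgatus 1 of 42 was higher and 2 were lower, beside 3.4% and 2.88% of all genes. Rab19 stood at 2.27 CPM after P. vulgatus and 6.88 CPM after YB328, a ratio of 3.04 (95% interval 2.26 to 4.13). Rab23, known as a brake on Hedgehog signalling at the cilium, stood at 8.12 CPM after P. vulgatus and 2.53 CPM after YB328, a ratio of 0.311 (95% interval 0.234 to 0.410). Rab33a stood at 5.33 and 1.90 CPM, a ratio of 0.357 (95% interval 0.255 to 0.495). All 3 genes are low, and none passed with a minimum of 20 CPM. In TPM Rab23 kept a log2 ratio of -1.20 but lay below the minimum, then 5 TPM, so that no call was made. Rab33a was lost with 2 CPM added. Of the genes that reached 20 CPM, Rab7b and Rab3d (ratio 1.40, 95% interval 1.28 to 1.54) had the largest ratios in favour of YB328.

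Within subfamilies the relatives did not keep fixed shares of the summed TPM. Rab5a held 40.9% of the Rab5 TPM untreated, 62.4% with P. vulgatus and 58.8% with YB328, while Rab5c held 37.1%, 23.9% and 26.2%. Rab8b held 53.3%, 69.1% and 60.9% of the Rab8 TPM, lowest untreated and highest with P. vulgatus. Rab22a held 32.4%, 44.2% and 46.7% of its sum with Rab31. Rab1a, in contrast, held 51.5%, 53.2% and 54.4% of Rab1, and Rab11a held 74.1%, 73.3% and 75.8% of Rab11. By CPM the Rab5a share was 45.6%, 57.6% and 53.4%. In no pair of the 59 coding sequences was a run of 50 bases shared, and the longest was 38 bases, between Rab1a and Rab1b.

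**Figure D4:**
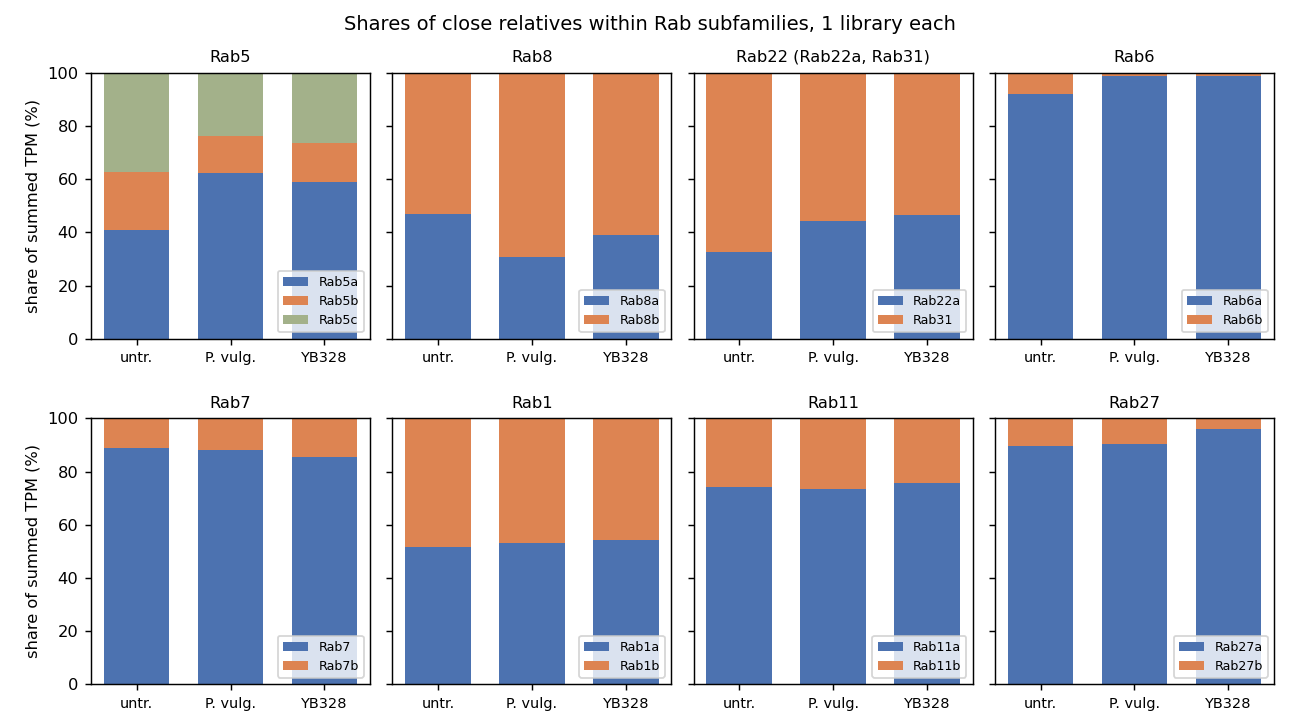
Share of the summed TPM held by each member of 8 Rab subfamilies for untreated cells, P. vulgatus and YB328 (1 library per bar, shares in percent). Rab5a grows from 40.9% to 62.4% and 58.8% of Rab5 and Rab8b from 53.3% to 69.1% and 60.9% of Rab8, while Rab1 and Rab11 keep similar shares.

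The genes that load, unload and read Rab proteins were taken from 9 lists with 133 genes, of which 111 were expressed. With P. vulgatus 23 of the 111 rose and 17 fell (20.7% and 15.3%, beside 25% and 18.9% of all genes), and with YB328 24 rose and 16 fell (21.6% and 14.4%, beside 24.6% and 18.4%). Shares for the lists together thus lay near or below the background. The prenylation and membrane recycling list, which attaches the lipid anchor of every Rab, had 0 and 1 of 8 higher and 0 lower, the 1 being Chm, an escort protein, at 13.2, 24.4 and 28.0 CPM.

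Of 31 exchange factors 6 rose and 7 fell with each bacterium. The shares over all genes were 25% and 18.9% with P. vulgatus and 24.6% and 18.4% with YB328. Dennd1a, an activator of Rab35, stood at 3.76 CPM untreated, 23.9 CPM after P. vulgatus and 25.05 CPM after YB328 and rose 6.35-fold and 6.66-fold. The Rab5 activator gene Rin2 rose from 14.4 CPM to 55.2 and 79.1 CPM. Ankrd27, which activates Rab21 and binds Rab32 and Rab38, rose from 5.70 CPM to 28.1 and 31.8 CPM. Rab3il1, an exchange factor for Rab8, had the largest ratio of the list, falling from 60.8 CPM to 4.95 and 3.66 CPM, while Rab8b rose.

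Of 32 GTPase-activating protein genes 7 rose and 5 fell with P. vulgatus, and 8 rose and 4 fell with YB328. These counts stand beside the same shares over all genes as those of the exchange factors. Evi5l rose from 2.07 CPM to 24.3 CPM after P. vulgatus and 11.6 CPM after YB328, and the YB328 level was lower than the P. vulgatus level by the rule. Rab3gap2, a subunit of the complex that acts on Rab3 and Rab18, rose from 9.33 CPM to 36.4 and 37.9 CPM. Tbc1d13, which acts on Rab35, fell from 16.9 CPM to 4.68 and 3.11 CPM. Sgsm1 rose from 2 counts, or 0.130 CPM, to 6.38 and 5.49 CPM, and Evi5l and Rab11fip3 were the only partner genes that differed between the bacteria by the rule.

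Effector genes moved in both directions. Of 7 early endosome effectors 2 rose and 2 fell with P. vulgatus, and 1 rose and 2 fell with YB328. This list is too small to set apart from the shares over all genes given above. Eea1 and Rabep1, tethers recruited by Rab5, fell from 91.6 CPM to 38.3 and 40.8 CPM and from 133 CPM to 43.3 and 45.4 CPM, where Rab5a rose. Appl2, which marks a separate class of Rab5 endosomes, rose from 11.7 CPM to 37.8 and 24.3 CPM. Rbsn, a Rab5 effector, rose from 9.59 CPM to 28.2 CPM with P. vulgatus and stood at 19.5 CPM with YB328, just under the limit.

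Of 9 recycling endosome effectors 4 rose and 2 fell with each bacterium, again a small list beside 25% and 18.9% of all genes with P. vulgatus and 24.6% and 18.4% with YB328. Micall2 rose from 3.31 CPM to 30.2 and 26.8 CPM and Micall1 from 10.6 CPM to 60.4 and 58.5 CPM, both scaffolds of recycling tubules. Rab11fip3, a Rab11 adaptor, rose from 0.518 CPM to 12.6 CPM after P. vulgatus and 4.61 CPM after YB328. Another adaptor of the family, Rab11fip4, fell from 6.03 CPM to 0.529 and 1.39 CPM.

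Of 14 late endosome effectors 1 rose and 1 fell with each bacterium. This stands beside 25% and 18.9% of all genes with P. vulgatus and 24.6% and 18.4% with YB328. Vps18, a core subunit of the tethering complexes that work with Rab5 and Rab7, rose from 21.1 CPM to 74.3 and 82.9 CPM, and Osbpl1a, a Rab7 effector, fell from 15.6 CPM to 7.03 and 6.55 CPM. Unc13d, the Rab27 effector for granule release and the only expressed gene among 11 secretory effectors, rose from 29.6 CPM to 61.5 and 80.4 CPM. Of 5 Rab kinases and phosphatases Ppm1j rose from 0.324 CPM to 5.44 and 5.31 CPM. Among 4 expressed Rab-like genes Ift22 rose from 9.79 CPM to 33.2 and 28.6 CPM.

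**Figure D5:**
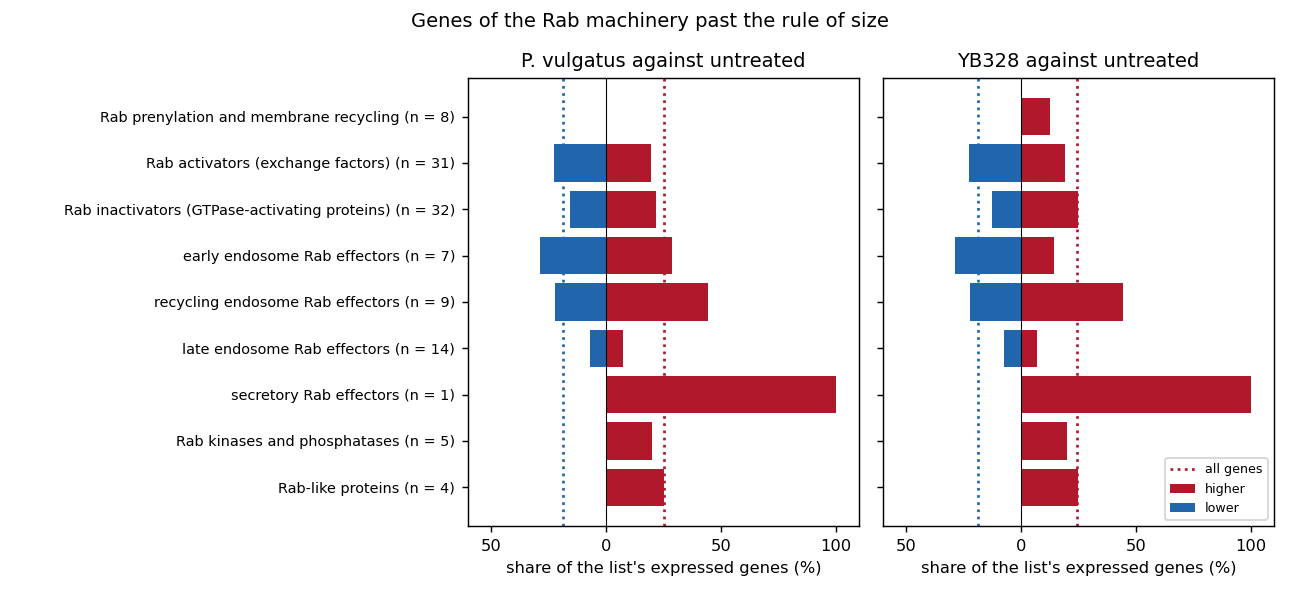
Share of the expressed genes of each list of Rab partners that rose (red, to the right) or fell (blue, to the left), in percent, for P. vulgatus and YB328 against untreated. Dotted lines are the shares over all 10699 genes tested (25% and 18.9% with P. vulgatus, 24.6% and 18.4% with YB328), and n is the number of expressed genes, which is 1 for the secretory effectors.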

How the data were processed

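Per the labels' protocols, RNA was extracted with an RNeasy Micro Kit, and libraries were made with SMART-Seq v4 and Nextera XT, which does not mark strand. Per the submitters' processing notes, DRAGEN and the build GRCm38 were used, and the sources used here do not give the annotation or counter. The deposited TPM values are per length and are scaled to the same sum in each library. The length was not fixed per gene, since TPM per CPM shifted between libraries differently by gene, as for Rab30 and Rab44. The deposited expected counts are not scaled between libraries, and 8.86% to 9.99% of them were not whole and were rounded. TMM factors came from edgeR 4.0.16 and median-of-ratios factors from DESeq2 1.42.0, used for scaling only. Ratios carry exact 95% Clopper-Pearson intervals, counts exact Poisson intervals, and a count of 0 a floor of 3 counts. No test was possible with 1 library per group. The method was tested on simulated data.

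The Rab genes, the role and partner lists, the rule of size and the alternatives were chosen with earlier results of these data known. Named were the Rab genes past the rule in a comparison, within 0.2 of the log2 limit or among the 10 most abundant, other members by values, and up to 4 genes past the rule in each partner list. Of 133 partner genes 132 were found in the table. In place of protein identity, coding sequences of GENCODE M21 were aligned (biopython 1.88). Promoters are from RefSeq. The level of 1 marker gene is not reported here. The alternatives were 3 other scalings, the deposited TPM (with a minimum of 5 TPM), no minimum or 20 CPM, 0.1 or 2 CPM added, and thinning to the shallowest library.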

Additional observations from a re-analysis of the deposited data

Results flagged for a closer look

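Rab23 lay on opposite sides of its untreated level with the bacteria. It stood at 4.73 CPM untreated, 8.12 CPM after P. vulgatus and 2.53 CPM after YB328, so that the log2 ratio of YB328 to P. vulgatus was -1.51. It was noticed because one treated library lies above and the other below the untreated one, each by more than 0.5 on the log2 scale (0.72 and -0.79). Neither ratio to untreated passed, and with 1 library per group the difference was not tested.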

How the results depend on the processing

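Of 675 values of named Rab genes under 9 alternatives, 642 kept their call or lack of one, 24 lost a call and 8 gained one. A change of sign without a call in either setting is counted among the 642. With a call, 1 value turned: Rab30 with YB328 against untreated, at 0.0193 with TPM. Of 108 counts 86 stayed within 1.5 times. With TPM, Rab genes numbered 17 higher and 2 lower for P. vulgatus and 20 higher and 1 lower for YB328 against untreated, and 1 was lower for YB328 against P. vulgatus. With TPM 8 partner genes were lower for YB328 against untreated, and 1 was higher and 1 lower for YB328 against P. vulgatus. With no minimum, 7, 6 and 4 Rab genes were lower for P. vulgatus and YB328 against untreated and YB328 against P. vulgatus. With 20 CPM, 1, 1 and 0 Rab genes and 8, 8 and 1 partner genes were lower in that order, and 0 Rab genes were higher for YB328 against P. vulgatus, since fewer genes were tested. For YB328 against P. vulgatus 1 partner gene was lower with total count scaling and with 2 CPM added, 1 was higher with 0.1 CPM added and after thinning, and 1 Rab gene was lower with 2 CPM added. The causes of the other changes were not tested. With 2 CPM added Rab33a lost its calls for YB328 against untreated (0.92) and against P. vulgatus (-0.91). No paired analysis was possible because each group has 1 library, and for the same reason no replicate could be left out in turn. At this depth a gene with 0 counts could still lie at up to 0.194 CPM in the untreated library, the shallowest.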

Other observations

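The table also lists Rab pseudogenes. Rab11b-ps2 had 61 counts untreated, 145 with P. vulgatus and 159 with YB328, and Rab7-ps1 had 37, 81 and 111 counts, small beside the 1701 to 3931 counts of Rab11b and the 3562 to 10694 counts of Rab7. Among Rab genes of the brain and epithelium, Rab39b had 0 counts untreated, 24 with P. vulgatus and 16 with YB328, and Rab3b had 7, 21 and 0 counts. All of these lie below 5 CPM except Rab11b-ps2 with the bacteria (5.48 and 5.82 CPM).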
